A study of Mus musculus with 96 samples.

Results

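Cytosolic ribosomal proteins form, with ribosomal RNA, the small and large subunits of the ribosome that translates nuclear mRNAs. Their genes are among the most strongly transcribed of a mammalian cell, and most of their mRNAs start with a pyrimidine tract at the 5′ end through which mTOR complex 1 and the RNA-binding protein LARP1 set their translation. Islets make large amounts of insulin and liver makes most plasma proteins, so both tissues carry a heavy load of protein synthesis. The members described here were chosen by gene name: Rpl or Rps followed by a digit, the stalk genes Rplp0, Rplp1 and Rplp2, and Rpsa. Names of S6 kinases, names marked as pseudogenes and names ending in l1 were left out, which removed 14 of 100 names. Of the 21990 genes in the table, 86 were members, 34 with names in Rps (small subunit) and 52 with names in Rpl (large subunit). Values were present for 85 of them, Rps27rt having none. The name rule also took in Rps19bp1, which encodes a protein that binds RPS19 and is not itself a subunit of the ribosome. It is counted among the 34 names in Rps.

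RNA was sequenced from pancreatic islets and liver of 48 male C57BL/6N mice, bought at 4 weeks of age and given a chow diet (CD, 13.5% fat) or a high-fat diet (HFD, 60% fat) for 4, 8, 12, 16, 20 or 24 weeks. Each of the 24 groups of tissue, diet and week held 4 libraries, with both tissues taken from each mouse. All 96 libraries were used. Levels are FPKM, fragments scaled to transcript length and to the mapped fragments of the library, so the number of reads behind a value is unknown. In such bulk tissue, fewer cells of a type and less RNA per cell cannot be told apart. Ins2, which encodes insulin, lay between 394273 and 707231 FPKM in islets and at a median of 7.23 FPKM in liver, where single libraries reached 2467 FPKM. Alb, which encodes albumin, had a median of 32851 FPKM in liver and 0.84 FPKM in islets. Insulin mRNAs took 53.7% to 75.1% of all FPKM in an islet library, and digestive enzyme mRNAs of the exocrine pancreas were present in every one, with Prss2 at 437 FPKM or more.

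The sequences around the transcription start are shown for members on which the diet comparisons turn, with Rps27l as a member that moved against the rest. They are from RefSeq (GRCm38.p6), run from 60 bases before to 30 bases after the first listed start, and carry in capitals the longest run of C or T between 20 bases before and 30 bases after it. Rps27, Rps18, Rpl28, Rpl27a and Rpsa fell in HFD livers, and Rpl37 and Rpl22 rose most in HFD islets at week 20. Rps18 was also called higher in HFD islets at week 20. The stretches lie at chr3:90213619-90213708 on the minus strand (Rps27), chr17:33955636-33955725 on the minus strand (Rps18), chr7:4792905-4792994 on the plus strand (Rpl28), chr7:109519135-109519224 on the plus strand (Rpl27a), chr9:120127706-120127795 on the plus strand (Rpsa), chr15:5116553-5116642 on the plus strand (Rpl37), chr4:152325666-152325755 on the plus strand (Rpl22) and chr9:66946026-66946115 on the plus strand (Rps27l).
Rps27: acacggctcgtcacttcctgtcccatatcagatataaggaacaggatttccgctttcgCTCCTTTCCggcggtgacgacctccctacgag
Rps18: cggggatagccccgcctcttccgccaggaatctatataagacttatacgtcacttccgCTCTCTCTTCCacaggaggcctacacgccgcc
Rpl28: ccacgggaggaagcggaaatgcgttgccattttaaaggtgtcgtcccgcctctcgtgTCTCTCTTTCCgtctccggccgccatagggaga
Rpl27a: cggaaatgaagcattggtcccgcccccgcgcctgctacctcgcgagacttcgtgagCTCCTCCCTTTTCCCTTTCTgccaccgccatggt
Rpsa: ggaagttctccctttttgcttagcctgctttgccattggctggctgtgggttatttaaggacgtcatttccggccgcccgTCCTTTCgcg
Rpl37: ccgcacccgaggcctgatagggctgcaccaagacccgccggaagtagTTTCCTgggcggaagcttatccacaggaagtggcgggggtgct
Rpl22: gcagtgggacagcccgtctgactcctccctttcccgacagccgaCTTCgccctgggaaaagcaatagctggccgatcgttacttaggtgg
Rps27l: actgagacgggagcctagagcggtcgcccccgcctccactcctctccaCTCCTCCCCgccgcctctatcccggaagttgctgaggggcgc

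A run of C and T crossed the listed start in Rps27, Rps18, Rpl28 and Rpl27a, and it was 9, 11, 11 and 20 bases long. In Rpsa the longest run of the window, 7 bases, began after the start, and in Rpl37 and Rps27l it ended before it. In Rpl22 the longest run within the window was 4 bases, and a longer one lay upstream of the window. Among members not printed, Rpl35, called higher in HFD islets at week 20, had a run of 18 bases across the start. Rpl12, called lower in HFD livers at week 8, had a run of 7 bases that began after it. The printed members are therefore no guide to how runs and diet differences go together. Where the run lay was not tested against the diet differences. Promoter sequences were found for 66 of the 86 members. A run of at least 8 pyrimidines in that window was present in 47% of the 66 and in 18.8% of 27025 promoters of all genes, counted at the first listed start. The letters CTTTCC, searched on the sense strand of the same window at every listed start, were present in 19.7% of members and 2.83% of all promoters. The letters CCGGAAG, the core to which ETS factors such as GABPA bind, were searched on both strands over the whole 300 bases and were found in 39.4% of members against 9.93% of all. The GC box letters GGGCGG were found by the same search in 59.1% against 38.2%. The TATA box letters TATAAA, searched on the sense strand between 40 and 20 bases before the start, were found in none of the 66 members and in 2.31% of all promoters.

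The members were abundant in both tissues, and their medians were close in FPKM as deposited. These FPKM are not on one scale between islets and liver, so closeness in FPKM is not closeness in level. In CD mice 81 of the 85 had a mean of at least 1 FPKM in both tissues, with a median of 306 FPKM in islets and 285 FPKM in liver. The median over all genes that reached 1 FPKM in at least 4 libraries was 8.11 and 6.63 FPKM, respectively. The 10 highest members made up 23.9% of the summed member level in islets and 24.7% in liver. In islets Rpl41, which encodes the shortest protein of the ribosome, was highest at 940 ± 142 FPKM (SD, n = 24 CD libraries), and Rpl10, whose protein is placed late in the maturation of the large subunit, followed at 869 ± 132 FPKM. Rps27, Rplp1 and Rps3a1 came next at 567 ± 141, 566 ± 93 and 490 ± 76.7 FPKM. Within this order Rpl41 and Rpl10 differed by less than their SDs, and so did Rps27, Rplp1 and Rps3a1 in turn. In liver Rps2 was highest at 828 ± 215 FPKM, then Rplp1 at 784 ± 244, Rpl10 at 697 ± 83.3, Rpl41 at 669 ± 208 and Rpl28 at 590 ± 153 FPKM, each nearer to its neighbour than the larger SD of the pair.

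The low end held near-silent relatives of abundant members and a few members with low listed values. Rpl3l, Rpl10l, Rpl32l and Rpl39l stayed under 1 FPKM in all 96 libraries, with highest values of 0.58, 0.17, 0.33 and 0.29 FPKM, while their partners Rpl3, Rpl10, Rpl32 and Rpl39 had CD means of 191 FPKM or more. Rpl3l is known as a form of striated muscle and Rpl10l as one of the testis. The retrogene Rpl37rt had a CD mean of 6.07 ± 5.06 FPKM in islets and Rps19bp1 8.16 ± 1.62 FPKM. Rpl31, whose protein lies at the exit of the nascent chain tunnel, had 10.7 ± 1.83 FPKM in islets and 6.39 ± 1.1 FPKM in liver. Rps6, the substrate that gave the S6 kinases their name, had 16.9 ± 4.87 FPKM in islets and 13.3 ± 2.81 FPKM in liver. A separate entry on chromosome 2 that the table annotates as the same protein, LOC105244208, had means over all libraries of a tissue of 489 and 405 FPKM, so the level listed for Rps6 is not the level of all RNA annotated as S6. Likewise 2 entries annotated as L23e on unplaced scaffolds had 102 FPKM each in islets, identical in every library, beside Rpl23. Among 35 such entries outside the name rule these 3 and BC031181, annotated as L17e, reached 10 FPKM. Members with such copies, and Rpl37 with Rpl37rt, are uncertain in level.

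The summed FPKM of the members lay between 19477 and 31999.8 in islets, which was 1.92% to 3.17% of all FPKM, and between 18179 and 34742 in liver, 2.9% to 5.17%. Its mean was higher at week 12 than at any other week in the islets of both diets, and the diets overlapped there: the 4 CD libraries lay between 28520 and 31999.8 and the 4 HFD libraries between 29126 and 31938.5. At week 20 the islets separated. The CD libraries had 21988, 21423.5, 22490.6 and 21336, and the HFD libraries 23372, 25853, 28497 and 27778. The lowest HFD library, of mouse HFD511, stood closest to the CD range. In liver at week 8 the HFD libraries lay between 19449.6 and 20917 and the CD libraries between 20190.5 and 25623, with a small overlap. These sums are a description, with no test.

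**Figure D1:**
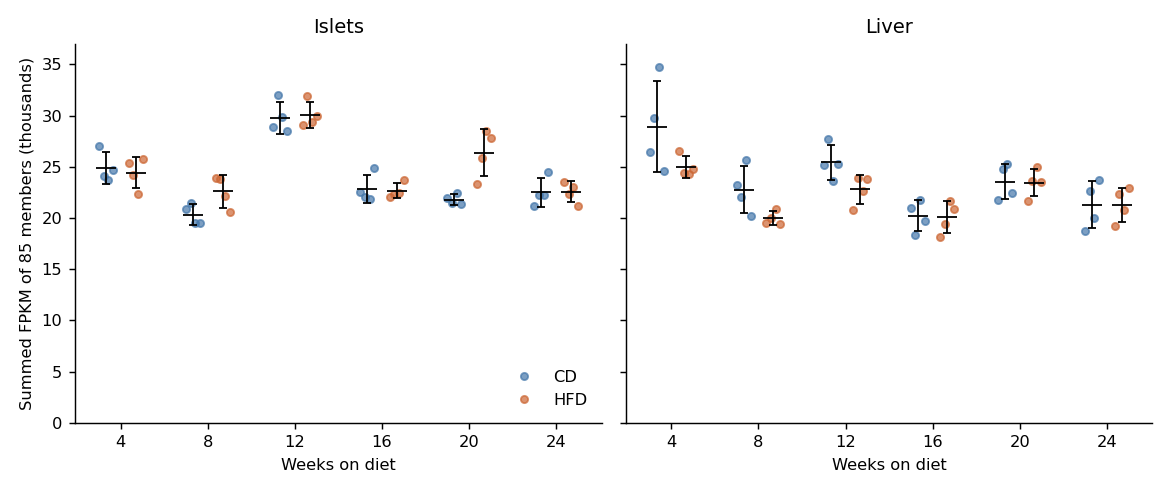
Summed FPKM of the 85 members with values, on an axis divided by 1000, for each library by weeks on diet, in islets (left) and liver (right). Points are single mice, horizontal marks the mean of 4 and bars the SD. The islet groups of week 20 do not overlap, and the highest liver library is a CD mouse of week 4 at 34742.

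In islets 21 members were called higher in HFD mice at week 20 and 1 at week 8, and no member passed the test at the other weeks. At week 20, 80 of 81 tested members had a higher mean on the log2(FPKM + 1) scale in HFD islets, with a median difference of 0.28 (HFD minus CD), where the median over all 11704 genes tested was -0.02. By limma with Benjamini-Hochberg adjustment over all genes tested, 21 members rose (25.9%) and none fell. The background was 1.53% of all genes called higher and 3.21% called lower. In 58 of the 81 all HFD libraries lay above all CD libraries, a pattern shown by 4.84% of all genes tested. No member reached a difference of 1 on the log2 scale. The members with names in Rps had a median difference of 0.28 and those with names in Rpl 0.28.

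Rpl22, an RNA-binding protein of the large subunit, had the largest called change. Its CD libraries had 31.74, 30, 34.85 and 32.54 FPKM and its HFD libraries 35.89, 42.24, 48.61 and 49.13 FPKM, a log2 difference of 0.43 (SE 0.0976, adjusted p = 0.0417, limma). Rpl37, a zinc-binding protein of the large subunit, had 116.93, 114.77, 126.33 and 114.51 FPKM in CD and 137.63, 149.22, 169.15 and 164.09 FPKM in HFD libraries, a log2 difference of 0.39 (SE 0.0757, adjusted p = 0.0238). Rpl10 had 760.56, 766.87, 770.22 and 761.15 FPKM in CD and 846.99, 975.54, 1124.76 and 1041.65 FPKM in HFD libraries. The SD of Rpl10 was 4.65 FPKM in CD and 117.3 FPKM in HFD libraries. HFD511 was the lowest HFD library for Rpl22, Rpl37 and Rpl10.

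The remaining called members rose by 0.29 to 0.36 on the log2 scale. Among them were Rpl36a, Rps12, Rpl32, Rpl39, Rps20, Rps27a, Rpl26, Rpl35, Rpl17, Rps7, Rpl21, Rpl35a, Rps3a1, Rps18, Rpl30, Rps14 and Rpl23. Rps27a is made as a fusion with ubiquitin. The members that did not share the pattern included the stalk gene Rplp0, at 349 FPKM in CD, with a difference of 0.03 (SE 0.0659, adjusted p = 0.83). Rps27l, Rpl36al, Rpl5, Rplp1 and Rps19bp1 had overlapping libraries as well.

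**Figure D2:**
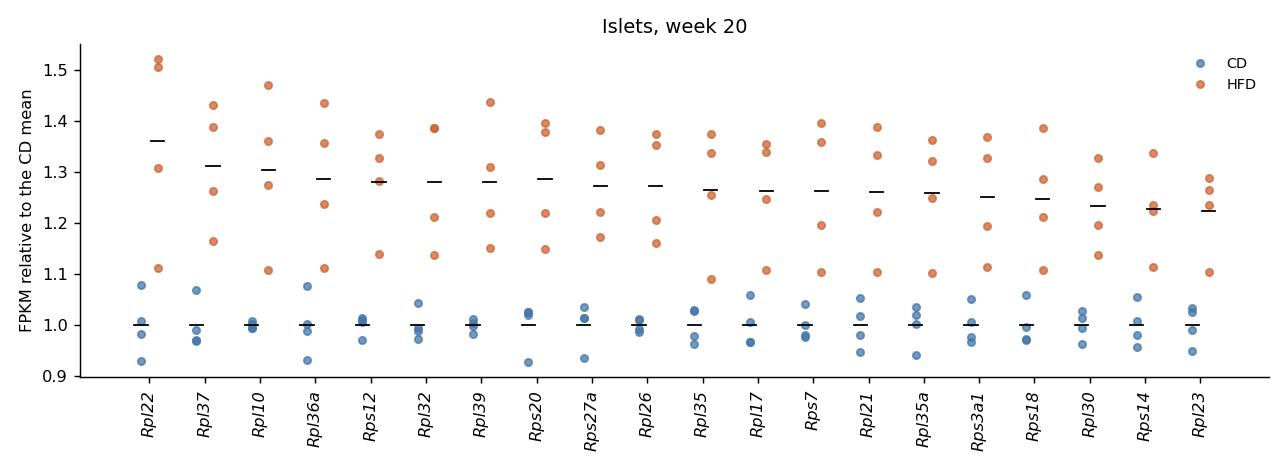
FPKM of the called members named in the text in the 8 islet libraries of week 20, each divided by the CD mean of that gene (the axis does not start at 0). Points are single mice and horizontal marks group means of 4. All HFD points lie above all CD points for each gene, and the HFD points spread more widely.

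The week 20 count rested on few libraries, since each group held 4. No member passed without any 1 of CD501, CD502, CD507, HFD517 or HFD518, 1 passed without CD505, 5 without HFD516 and 73 without HFD511. The median member difference stayed between 0.24 and 0.34 over these 8 fits. With all 12 islet groups in one fit, which shares the spread, 64 rose. Other scalings of the libraries gave between 8 and 62 higher and none lower, and the median of the members stood 0.29 to 0.31 above the median of all genes under each of them. Marker levels of the same week are given beside this count, whether or not they differed. Summed globin FPKM was 144 to 281 in CD and 384 to 675 in HFD islets, with 4 of 4 tested globin genes called higher. Macrophage markers summed to 77.8 to 92.5 FPKM in CD and 80.2 to 167 FPKM in HFD islets, with none of 8 called. Acinar markers summed to 7769 to 22725 FPKM in CD and 16662 to 42389 FPKM in HFD islets, with none of 22 called. Markers of alpha, delta and PP cells summed to 17031 to 19247 FPKM in CD and 2908 to 9716 FPKM in HFD islets, with 7 of 8 called lower. Insulin took 61.7% to 65.9% of FPKM in CD and 63.1% to 65.7% in HFD islets. The part of these markers in the result was not tested.

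At week 8, 77 of 81 members had a higher mean in HFD islets, with a median difference of 0.15, where all genes had a median of -0.11. Rpl5, which joins the ribosome in a complex with Rpl11 and a small ribosomal RNA and binds MDM2 when ribosome assembly fails, was the only member called. It had 40.82, 37.07, 37.6 and 37.79 FPKM in CD and 52.76, 43.94, 46.31 and 45.51 FPKM in HFD libraries, with no overlap (log2 difference 0.29, SE 0.0687, adjusted p = 0.0364, limma). The background of week 8 was 0.602% higher and 4.67% lower, and 30 members had an unadjusted p under 0.05, all of them higher. No member passed without any 1 of 7 of the 8 libraries, and 21 passed without HFD217, whose summed level of 20541.5 FPKM was the lowest of the HFD group. The median of the members stood 0.24 to 0.27 above that of all genes under all 4 scalings. At the same week, markers of alpha, delta and PP cells summed to 19357 to 21454 FPKM in CD and 11753 to 16373.5 FPKM in HFD islets, with 5 of 8 called lower, and of 10 beta cell markers 1 was called higher and 2 lower. Their part in the result was not tested.

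At weeks 4, 12, 16 and 24 no member was called in islets by limma, with 2, 0, 6 and 4 members at an unadjusted p under 0.05. The member medians were -0.03, 0.01, -0.01 and 0 on the log2 scale. The background was 0% higher and 0% lower at week 4, 2.18% and 2.35% at week 12, 3.3% and 5.15% at week 16, and 6.57% and 1.73% at week 24. At weeks 12 and 16 the answer turned on the scaling. Insulin took 57% of FPKM in CD and 69.6% in HFD islets at week 12 (means of 4), and 62.6% and 70.8% at week 16. With each library set to the same total, 9 members fell at week 12 and 16 at week 16, and with totals counted without Ins1 and Ins2, 44 and 36 rose. The median of all genes moved with them, from -0.17 to 0.26 at week 12, and the member median differed from it by -0.03 to 0.04.

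**Figure D3:**
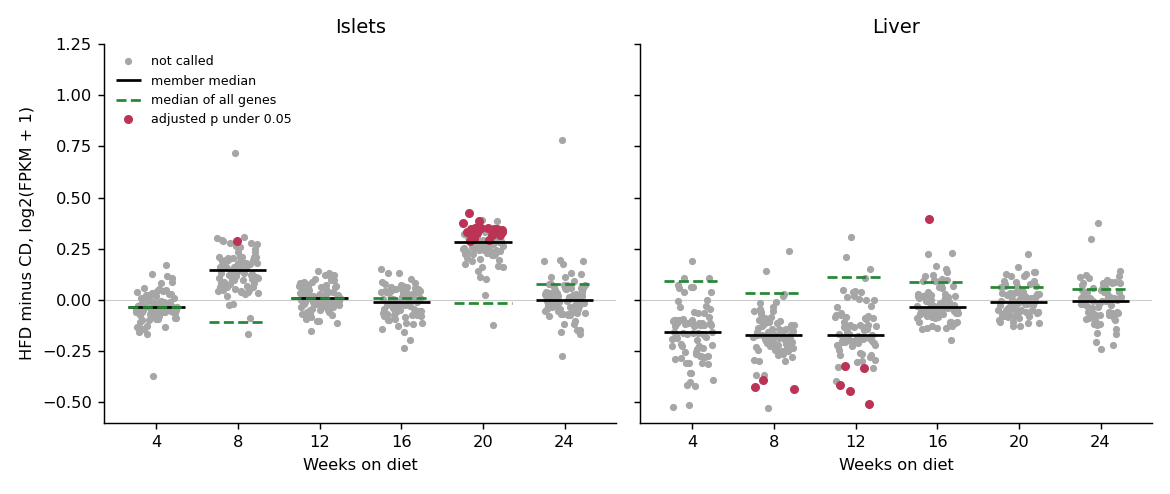
HFD minus CD difference of each tested member on the log2(FPKM + 1) scale by weeks on diet, in islets (left) and liver (right). Each point is a member, red where called at adjusted p under 0.05; solid lines are member medians and dashed lines medians of all genes tested. The islet member median lies above that of all genes at weeks 8 and 20 and below it at week 24, and the liver member median lies below that of all genes at each of the 6 weeks, by 0.25, 0.21 and 0.28 at weeks 4, 8 and 12 and by 0.12, 0.08 and 0.06 at weeks 16, 20 and 24.

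Over the 6 weeks together, 29 of 81 members were higher in HFD islets and none lower (background 16.6% higher and 22% lower of 12378 genes), with a median difference of 0.06 against -0.01 for all genes. Rpl10 had the largest, 0.17 (SE 0.0261, adjusted p = 1.29e-06, limma), with CD libraries between 699 and 1227 FPKM and HFD libraries between 783.5 and 1198 FPKM. Rps14, Rpl22, Rpl4 and Rpl28 followed at 0.14, 0.14, 0.13 and 0.12. Rpl4 is one of the proteins that line the tunnel of the large subunit. The direction turned with the scaling: with each library set to the same total FPKM 12 members fell and none rose, while the median ratio scaling gave 50 and the totals without insulin 75 higher. The weeks weighed unequally, since 15 members were called higher without week 8 and, without week 20, 6 were higher and 1 lower. Over the same weeks 8 of 8 markers of alpha, delta and PP cells were called lower, 4 of 4 globin genes higher, 5 of 10 beta cell markers higher and 2 lower, and 1 of 23 acinar markers higher and 11 lower. Proliferation genes, low in level, summed to 32.3 to 124 FPKM in CD and 28.4 to 53.4 FPKM in HFD islets, with 13 of 16 called lower and 0 higher. The part of all these genes in the result was not tested. The difference between diets changed over the weeks in 17 of 81 members (21%) by the F test, against 4.25% of all genes, Rpl32 having the smallest adjusted p (0.00471). Without week 20 no member passed that test.

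In liver the called members were lower in HFD mice at weeks 8 and 12, and 1 was higher at week 16. The medians of the members were -0.16, -0.17 and -0.17 at weeks 4, 8 and 12, where all genes had 0.09, 0.04 and 0.11. At weeks 16, 20 and 24 the member medians were -0.03, -0.01 and -0.01, where all genes had 0.09, 0.07 and 0.06. At week 8, 3 members fell and none rose (background 1.33% lower and 6.17% higher), and 77 of 81 had a lower mean in HFD. At week 12, 5 fell and none rose (1.22% lower and 9.42% higher), and 70 of 81 had a lower mean. In 20 members at week 8 and 23 at week 12 all HFD libraries lay below all CD libraries, patterns shown by 3.69% and 3.49% of all genes tested. At week 4 no member was called by limma, although 71 had a lower mean and 15 had an unadjusted p under 0.05, all lower. The background of week 4 was 0.0405% higher and 0.0101% lower.

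Rpsa, the laminin receptor precursor of the small subunit, had at week 8 273.63, 256.13, 283.94 and 226.45 FPKM in CD livers and 183.29, 194.78, 182.28 and 205.12 FPKM in HFD livers. The groups did not overlap and the log2 difference was -0.44 (SE 0.0882, adjusted p = 0.0219, limma). Rpl12, at the base of the stalk where elongation factors dock, had 318.93, 301.89, 326.78 and 280.57 FPKM in CD and 229.9, 234.5, 222.81 and 224.87 FPKM in HFD livers. Its difference was -0.43 (SE 0.0712, adjusted p = 0.0107), and its HFD libraries had an SD of 5.25 FPKM. Rpl27a, with the longest pyrimidine run printed above, had 218.73, 209.36, 250.11 and 187.6 FPKM in CD and 153.62, 158.02, 169.9 and 174.42 FPKM in HFD livers, a difference of -0.39 (SE 0.0968, adjusted p = 0.0435).

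At week 12 other members passed. Rps27, a zinc finger protein of the small subunit, had 496.71, 555.54, 531.5 and 588.6 FPKM in CD and 364.56, 372.89, 388.17 and 400.51 FPKM in HFD livers. With a log2 difference of -0.51 (SE 0.0835, adjusted p = 0.0115) it was the largest change of a called member in either tissue. Rpl36 had 180.97, 208.94, 178.22 and 216.49 FPKM in CD and 143.06, 146.68, 133.4 and 151.21 FPKM in HFD livers, a difference of -0.44 (SE 0.0931, adjusted p = 0.0211). Rps18 fell by 0.33 and Rpl28 by 0.32 on the log2 scale, and for neither did the groups overlap.

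**Figure D4:**
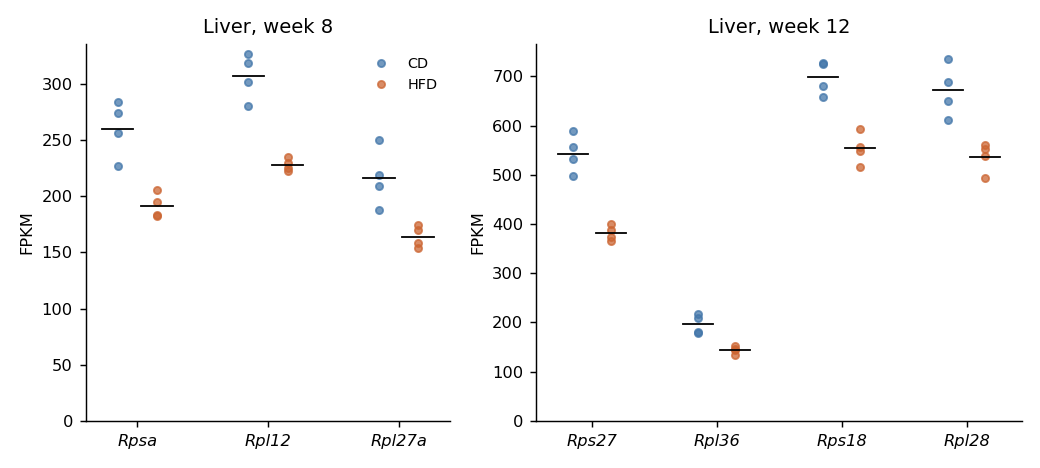
FPKM of the named members called lower in HFD livers at week 8 (left) and week 12 (right), axes from 0. Points are single mice and horizontal marks group means of 4. All HFD points lie below all CD points for each gene.

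At week 16 Rpl31 rose, with 5.98, 4.72, 5.11 and 5.74 FPKM in CD and 7.4, 6.84, 7.72 and 7.51 FPKM in HFD livers (log2 difference 0.39, SE 0.0885, adjusted p = 0.0276, limma; background 6.74% higher and 0.682% lower). No other member was called then, and none after median ratio scaling, nor without any 1 of 5 of the 8 libraries. At weeks 20 and 24 no member was called (background 1.73% and 0.746%, then 0.65% and 0.187%, higher and lower), with 0 and 1 at an unadjusted p under 0.05. The calls of weeks 8 and 12 kept their direction under every alternative: with median ratio scaling 19 and 43 fell, with equal totals 1 and 3, and with 1 library left out 1 to 4 and 1 to 10. At week 8 only 1 member passed without any 1 of CD203, CD205, CD207, HFD211, HFD212 or HFD213. At week 12, 10 passed without CD304, 3 without CD306, CD307 or HFD313, 2 without HFD318 and 1 without CD308 or HFD315. Relative to the median of all genes the members stood 0.2 to 0.22 lower at week 8 and 0.27 to 0.31 lower at week 12 under the 3 scalings. Other markers moved at these weeks. Stroma markers summed to 41.5 to 75.3 FPKM in CD and 82.3 to 127 FPKM in HFD livers at week 12, with 5 of 6 called higher, and macrophage markers to 83.2 to 121 and 153 to 316 FPKM, with 4 of 9 called higher. At week 8 none of these stroma and macrophage markers was called, and hepatocyte markers summed to 66479 to 76983 FPKM in CD and 67472 to 82209 FPKM in HFD livers, with 1 of 9 called higher and 2 lower. Ductal markers summed to 187 to 261 FPKM in CD and 370 to 488 FPKM in HFD livers at week 12, with 2 of 6 called higher. The part of these markers in the result was not tested.

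Over the 6 weeks, 33 of 81 members were lower and 2 higher in HFD livers, whereas over all 10879 genes 6.78% were lower and 35.8% higher. The median difference was -0.08 for members and 0.08 for all genes. Rpl36 had the largest fall at -0.29 (SE 0.0666, adjusted p = 0.000643, limma), then Rpl28 at -0.2, Rps18 at -0.2, Rps27 at -0.19 and Rpsa at -0.19. The 2 that rose were Rps27l at 0.14 (SE 0.0433, adjusted p = 0.00819) and Rpl31 at 0.12 (SE 0.0465, adjusted p = 0.0302). The count was 74 lower and none higher after median ratio scaling, and 14 lower and 2 higher with equal totals. It fell to 19 lower and 2 higher without week 8 and to 14 lower and 2 higher without week 12. Over the same weeks 8 of 9 macrophage and 6 of 7 stroma markers were called higher and 3 of 9 hepatocyte markers lower, and their part in the result was not tested. No member passed the F test for a change of the diet difference over the weeks in liver, where 1.46% of all genes did.

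Rps27 and Rps27l are a pair of closely related small subunit genes, the second of which is induced by p53. In CD livers Rps27l stood at 0.317 to 0.639 times the FPKM of Rps27, with a median of 0.482, and in HFD livers at 0.453 to 0.752 times, with a median of 0.594. In islets the median ratio was 0.11 in CD and 0.102 in HFD. Rps27l in liver had means of 202 ± 23.5 and 238 ± 19.8 FPKM at week 8 and 202 ± 18.6 and 237 ± 18.9 FPKM at week 16 (CD and HFD, SD, n = 4), but no single week was called. The rise of Rps27l was not called after median ratio scaling, where it was 0.02. Rpl36al, the other expressed member of this kind, stood at a median of 1.5 times Rpl36a in CD islets and 1.48 times in CD livers.

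The difference between diets was tested between tissues on all 96 libraries. It was higher in islets than in liver for 53 of 81 members and lower for none, against 8.42% and 35.5% of 13346 genes. Rpl36 differed most, by 0.34 (SE 0.0806, adjusted p = 0.000389, limma), then Rpl28 by 0.32, Rps27 by 0.27 and Rps18 by 0.26. Median ratio scaling within each tissue gave 76 higher and none lower, and equal totals 5 higher and 5 lower.

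Between the tissues of CD mice 34 of 81 members were higher in islets and 35 higher in liver, against 66.9% and 28.5% of 13074 genes. FPKM of a highly skewed islet library and of liver are not on one scale: after median ratio scaling 1 member was higher in islets and 78 in liver, and the median of all genes moved from 0.66 to 0.04. The order of the members within this shift is therefore given. Rps27l lay farthest to the liver side, at 58.2 ± 7.01 FPKM in islets and 199 ± 24.9 FPKM in liver (SD, n = 24), and was higher in the liver of 24 of 24 mice (log2 difference -1.76, SE 0.0489). It was the only member with a difference of at least 1. Rps2, near the entry of the mRNA channel, followed at -0.99, then Rpl28 at -0.72 and Rps19bp1 at -0.67, all higher in the liver of 24 of 24 mice. Farthest to the islet side lay Rps24 at 397 ± 41.9 and 200 ± 17.4 FPKM, a difference of 0.98 (SE 0.0308), and it was the member that stayed higher in islets after scaling (0.23). Rpl3, at the peptidyl transferase centre, Rpl31, Rps3a1 and Rpl41 followed at 0.69, 0.66, 0.63 and 0.53. The stalk genes split in unscaled FPKM only: Rplp1 was lower in islets by 0.43, Rplp0 higher by 0.13, and Rplp2 differed by 0.01 (SE 0.0436, adjusted p = 0.893, limma). After median ratio scaling Rplp1, Rplp0 and Rplp2 were all lower in islets, with differences of -1.19, -0.62 and -0.75.

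**Figure D5:**
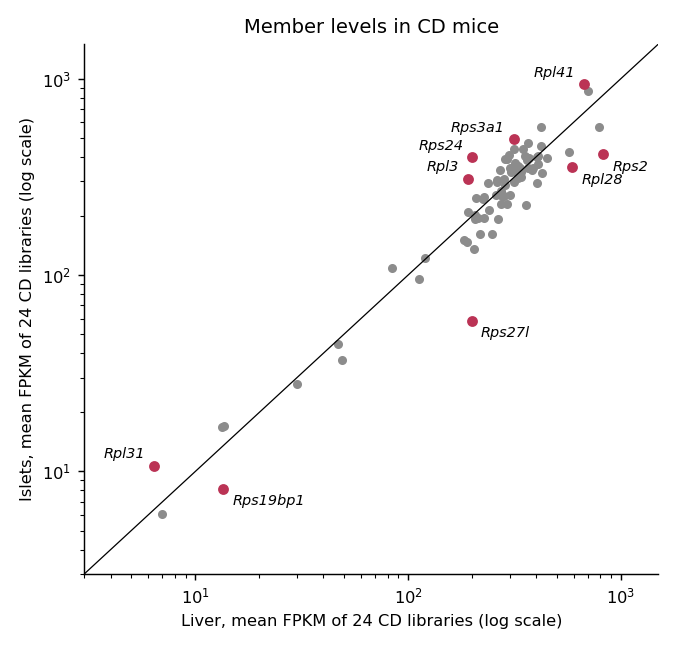
Mean FPKM of the 81 expressed members in CD islets against CD liver, both axes on a log scale, with the line of equal unscaled FPKM. Red points are members named in the text for their difference between tissues; Rps27l, Rps2 and Rpl28 lie below the line, and Rps24, Rpl3 and Rps3a1 above it.

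Levels among CD mice differed between weeks in 80 of 81 members in islets, all but Rpl36, and in 75 in liver, against 77.5% and 55% of all genes. In islets 67 members had their highest CD mean at week 12 and 40 their lowest at week 8, and in liver 51 were highest at week 4 and 47 lowest at week 16. Week and the handling of its libraries cannot be told apart, and 2 members bear on this. Rpl37rt was between 0.17 and 1.02 FPKM in the 16 libraries of week 16, of both tissues and diets, and between 1.26 and 18.2 FPKM in the other 80. Rpl15, a large subunit protein, was between 118 and 162 FPKM in the 16 libraries of week 16 and between 177 and 375 FPKM in the other 80. Only 3 of 13346 genes were lower in week 16 than in every other library in this way, and 2 of them were these members. At week 12, 5 genes were higher than in every other library, and 0 of them were members. Diets were compared within weeks because the study was laid out that way.

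The members also varied together within groups. After the group means were taken off, each member's correlation with the mean of the other members had a median of 0.784 over 48 islet libraries and 0.832 over 48 liver libraries, while other genes had medians of 0.00605 and 0.0896 with the same mean. These points share their libraries, so the values describe and do not test. The weakest in islets were Rpl37rt at -0.06, Rps19bp1 at 0.202 and Rpl36al at 0.288. In liver they were Rpl5 at 0.0507, Rpl4 at 0.14 and Rpl7 at 0.189. The genes outside the list most like the summed level over 24 CD libraries were Rack1, Fau, Eef1a1, Eif3k and Eef1b2 in islets (Pearson's r from 0.915 to 0.939) and, among others, Fau, Timm13, Pih1d1 and 2310039H08Rik in liver (0.94 to 0.956). Rack1 and Fau themselves encode ribosomal proteins under other names. Over the 48 libraries of a tissue the SD of a member had a median of 0.215 on the log2 scale in islets and 0.217 in liver, where all genes had 0.217 and 0.242. The most variable were Rpl37rt, Rpl15 and Rps6 in islets and Rpl37rt, Rpl36 and Rpl28 in liver. The least variable were Rps24, Rpl34 and Rpl23a in islets and Rpl23a, Rpl9 and Rpl22 in liver.

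Some members are commonly used as reference genes in PCR, and differences between these genes were not tested. In islets at week 20, Rpl32 and Rps18 rose by 0.35 and 0.32 (adjusted p = 0.038 and 0.0499, limma), whereas Rpl13a and Rpl19 had 0.23 and 0.23 and Rplp0 0.03, none of them called. In liver over the 6 weeks, Rps18 and Rpl13a were lower by 0.2 and 0.14, and Rplp0, Rpl32 and Rpl19 had differences of -0.09, -0.1 and -0.01 that were not called.

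Other genes of translation gave counts of their own over the 6 weeks. Beside them stand the shares over all genes tested, 16.6% called higher and 22% lower in islets and 35.8% higher and 6.78% lower in liver. The lists were not tested against these shares. Their counts are from FPKM as deposited and were not repeated under the other scalings. The direction of the members' own 6-week islet count turned with the scaling, so the islet counts of these lists carry the same limit. Of the 3 ribosomal proteins with other names, 1 rose in islets, Fau by 0.11 (SE 0.0355, adjusted p = 0.0161), and 2 fell in liver, Fau by 0.16 (SE 0.054, adjusted p = 0.0146). A list of 38 genes held translation factors and related products of mRNAs with a 5′ pyrimidine tract. Of these 38, 12 rose and 1 fell in islets. There Eef1a1 rose by 0.14 from a mean of 1759 to 1934 FPKM, and Hnrnpa1, which is not a translation factor, fell by 0.26. In liver 7 of the 38 rose and 6 fell, led by Eif4g1 (0.21) and Eif4b (-0.18). Of 76 mitochondrial ribosomal proteins tested, 29 rose and none fell in islets, led by Mrps36 (0.21), and 27 rose and 1 fell in liver, led by Mrpl16 (0.3), the 1 being Mrps10 (-0.1). Their median in liver was 0.08, as was that of all genes, of which 35.8% were called higher. Of 45 genes of ribosome assembly, 8 rose and 1 fell in islets (Nop10 0.2, Polr1a -0.12), and 7 rose and 4 fell in liver (Gnl3l 0.22, Polr1c -0.18). Of 20 regulators such as mTOR and MYC, 3 rose and 4 fell in islets (Akt1s1 0.12, Sesn2 -0.17), and 8 rose and 3 fell in liver (Myc 0.51, Maf1 -0.18).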

How the data were processed

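The authors deposited 1 table of FPKM values per gene for 96 poly(A) RNA-seq libraries, 2 decimals deep. The submitters' processing notes name HISAT2 2.0.4, Bowtie2 2.2.5, RSEM 1.1.12, DESeq2 and GRCm38.p5. The table's columns of fold changes, q-values and p-values from the authors' own comparisons, and their group means, were not used, and read depth is unknown. Values were tested as log2(FPKM + 1) with limma 3.58.1 (R 4.3.3, trend and robust options) over genes at 1 FPKM or more in at least 4 libraries, with Benjamini-Hochberg adjustment over all genes tested and calls at 0.05. Fold changes are on this scale, which understates the change of low genes. Each week was fitted on its 8 libraries; the 6-week, week and tissue comparisons used all libraries of the tissue or tissues. FPKM carry no common total between libraries. Equal totals, median ratio scaling and totals without insulin were the alternatives, as were a pseudocount of 0.1, no filter and left-out libraries. Islets and liver of a mouse share its number. Deviations of the members from the group means had a correlation of 0.17 between the tissues of the 48 mice, and the fit with the mouse as a block is given under the alternatives. P-values of a single week measure the spread between 4 mice a group, shared in part over genes. Those of the 6-week, week and tissue comparisons rest on the spread within groups, pooled over all libraries fitted. In the main fits across tissues the islet and liver library of a mouse count as separate. The scripts were tested on simulated data. Promoters came from RefSeq. Some members are not reported here by name. The members and gene lists were chosen with earlier results of these data known. Named members are the extremes by level, change, tissue difference and variability, the pairs with a final l, the stalk genes and PCR references. Other members and table entries named, among them the further called members, Rpl15, the weakest correlations and the copies, were chosen after their values were seen.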

Additional observations from a re-analysis of the deposited data

Results flagged for a closer look

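The difference between diets was higher in islets than in liver for 53 members, by the test of the difference itself, against 8.42% of all genes higher and 35.5% lower. With equal total FPKM in each library 5 members were higher and 5 lower. In islets the difference changed over the weeks in 17 members by the F test, against 4.25% of all genes, and in 0 members by limma without week 20. Groups of 4 were examined for a library far from the others, in the summed level and in each called member at its week. Many of these 86 groups share libraries and were picked by the calls, so no rate expected by chance is given. Such a library was found in 2 of them. Both were the islets of CD502 at week 20, with Rps12 at 322.08 FPKM and Rps20 at 24.56 FPKM, each the lowest of its group. The group means of Rps12 and Rps20 were 332 and 26.5 FPKM in CD and 425 and 34 FPKM in HFD islets.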

How the results depend on the processing

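Read depth is unknown for FPKM values, so no limit of detection can be given, and groups of 4 mice limit each weekly count. Counts below are members past adjusted p 0.05 by limma. Leaving out 1 library at a time (96 fits) gave, for weeks 4, 8, 12, 16, 20 and 24, 0 to 0, 0 to 21, 0 to 0, 0 to 1, 0 to 73 and 0 to 1 members in islets and 0 to 0, 1 to 4, 1 to 10, 0 to 1, 0 to 0 and 0 to 0 in liver. In islets, without the filter on low FPKM, the counts were 0 at week 8, 1 at week 16 (lower) and 9 at week 20. Median ratio scaling gave 6, 1 and 62 at these weeks, all higher, and 50 over the 6 weeks. Equal total FPKM gave 0 at week 8, 9 lower at week 12, 16 lower at week 16 and 9 higher at week 20; over the 6 weeks the direction reversed, with 12 lower, and 11 members passed the test of change over weeks. Totals without Ins1 and Ins2 gave 0, 44, 36 and 8 at weeks 8, 12, 16 and 20 and 75 over the 6 weeks, all higher, and put the members' mean share of FPKM at 6.97%. One fit of all 12 islet groups gave 13, 64 and 4 at weeks 8, 20 and 24. Without week 8, 15 members passed over the 6 weeks and without week 20, 7, while the test of change over weeks then gave 0. In liver, one fit of all 12 groups gave 2, 5 and 9 at weeks 4, 8 and 12, median ratio scaling 19, 43 and 0 at weeks 8, 12 and 16, and equal totals 1 and 3 at weeks 8 and 12. Over the 6 weeks these scalings gave 74 and 16, and the count was 21 without week 8 and 16 without week 12. With equal totals 10 members passed for the difference between tissues, 5 of them lower in islets, where 53 higher and 0 lower had passed. With the mouse as a replicate block, 69 members differed between tissues and 55 in the diet difference, against 69 and 53 without it. A pseudocount of 0.1 moved no count by more than 1.5 times. Of 125 alternatives for single members, 112 kept the call, 13 lost it and 0 reversed. These members were those with the largest called 6-week changes in each tissue, picked from the same data. The counts therefore do not show how well the calls of other members hold. The causes were not tested.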
